A study of Gallus gallus with 2 samples.

Results

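The genes described here are those of intestinal calcium and phosphate handling and of its control by vitamin D in the chicken ileum: CALB1, VDR, RXRA, CYP24A1, TRPV6, ATP2B1, ATP2B4, SLC34A2, SLC20A1 and SLC20A2. They were chosen by name, with earlier results of these data known. The study itself lists CALB1 among its notable downregulated genes on these arrays, so the low place of CALB1 here is no independent result. All 10 genes were on the array, with 24 probe sets (groups of short DNA probes for a single transcript) of the 37693 chicken probe sets, and among 13008 named genes in all.

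Ileal RNA was measured on 2 GeneChip Chicken Genome Arrays. The paddy rice array held RNA pooled from 3 male White Leghorn chicks given a paddy rice-based diet, and the corn array held RNA pooled from 3 male White Leghorn chicks given a corn-based diet, the control. Either grain made up 650 g/kg of the diet, which was given for 2 wk from 1 to 3 wk of age to 9 birds per group. Vitamin and mineral mixtures were the same in both diets, vitamin D3, calcium and phosphate salts included, whereas crude protein and metabolizable energy were not matched between them. The birds in each pool had been picked so that ileal expression of the mucin gene MUC2 was close to their group's average, and were therefore no random draw from it. Values are MAS5 signals on a linear scale, and each ratio is the signal on paddy rice over that on corn. With 1 pool per diet there is no replicate error and no test, so the ratios compare these pools, and the number of arrays limits their precision. In pooled tissue, fewer cells of a type and less RNA per cell cannot be told apart.

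Calcium crosses the intestinal epithelium partly through the enterocyte itself. The channel TRPV6 lets it in at the brush border, calbindin (the 28-kDa protein in birds, encoded by CALB1) binds and ferries it through the cytosol, and plasma membrane calcium pumps encoded by the ATP2B genes push it out on the blood side. The hormone 1,25-dihydroxyvitamin D3 acts through the vitamin D receptor, which binds DNA together with a retinoid X receptor, and calbindin is its classic intestinal target in the chicken. Phosphate enters with sodium through SLC34A2 and the SLC20 transporters.

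The array data were of like quality for both diets on the measures given here. The 27 probe sets for hybridisation spike-ins had ratios between 0.911 and 1.04. The signal at the end of a transcript over that at its start was 1.52 on paddy rice and 1.51 on corn for ACTB. For GAPDH it was 1.18 on paddy rice and 1.22 on corn. The trimmed mean signal was 500.1 on either array (2% taken off both ends), but scaling to a common target fixes this value, so it says nothing of quality. The signal of 689 probe sets that are not for chicken genes had a 95th percentile of 45.1 on paddy rice and 44.1 on corn, which is taken as the level of background. The spread of ratios grows as signals fall. Each probe set was therefore set beside the central 95% of the ratios in its own bin of signal, 1 of 20 bins of about 1885 chicken probe sets each. The SD of log2 ratios within genes that have several probe sets was 0.16 in the top quartile of signal (1663 genes) and 0.27 in the upper 50% (4028 genes). It measures how far probe sets of a gene disagree, and errors that they share, such as those of a whole array, do not enter it. The ileal genes FABP6 and SLC10A2 were bright on both arrays, with signals of 35027 and 14136 on paddy rice and of 31195 and 13833 on corn.

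For CALB1 the brightest probe set was far lower on paddy rice (ratio 0.344), the next was less so (0.592), and the dimmest gave no direction. SLC34A2 was lower by a smaller step, and both of its probe sets showed it. For VDR only the brighter probe set was lower (0.709), while the dimmer was nearly equal (0.994). The brightest probe sets of the channel and pump genes had signals close to those on corn. For TRPV6 this rests on a single probe set, marked as shared between transcripts. Of the 10 genes, read on their brightest probe set, 9 had a ratio below 1, and the median log2 ratio was -0.32. Over all 13008 named genes, 50.5% had a ratio below 1 and the median log2 ratio was -0.0029. Below 0.67 were 2 genes, CALB1 and SLC20A1, where 8.57% of named genes lay below 0.67. Above 1.5 was none, where 8.27% of named genes lay above 1.5. SLC20A1 was at the level of background on paddy rice, so CALB1 was the only one of the 2 with a signal above background on both arrays. Among named genes above background on both arrays, 3.01% were below 0.67 and 50.15% had a ratio below 1. Without SLC20A1 and CYP24A1, which were at background on at least 1 array, 7 of 8 genes had a ratio below 1. The median log2 ratio of these 8 was -0.20.

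**Figure D1:**
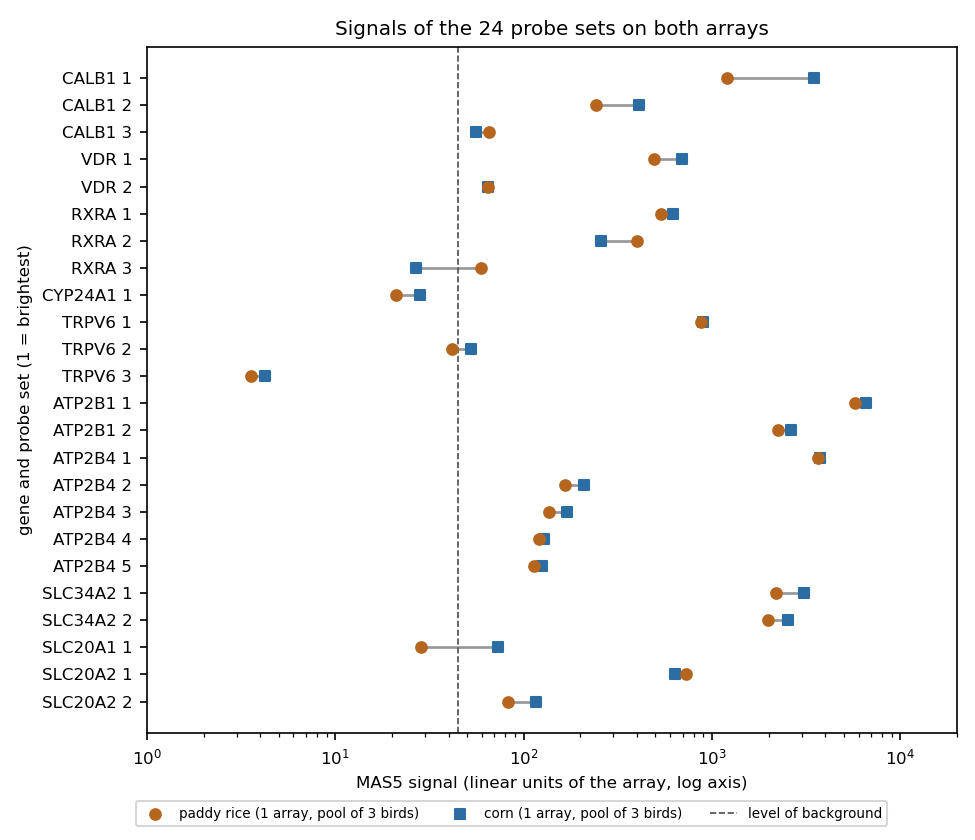
MAS5 signal (x axis, log scale) of each of the 24 probe sets (y axis, by gene, 1 being the brightest) on the paddy rice array (circles) and the corn array (squares), 1 pool of 3 birds each, with a dashed line at the higher of the 2 background levels (45.1). The pair for the brightest CALB1 probe set lies widest apart among the bright ones, at 1197 on paddy rice and 3478 on corn, while the pairs for the brightest probe sets of TRPV6 and ATP2B4 nearly coincide.

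By the mean of their log2 signals, the brightest probe sets of ATP2B1, ATP2B4, SLC34A2 and CALB1 held ranks 854, 1662, 2469 and 3207 among the 37693 chicken probe sets. Those of TRPV6, SLC20A2, VDR and RXRA held ranks 6625, 7940, 8822 and 8846, which is still within the top quartile. Those of SLC20A1 and CYP24A1 held ranks 25685 and 29722, in the lower 50%. The second probe sets of ATP2B1 and SLC34A2 were of similar rank to the first, at 2681 and 2922. The further probe sets of RXRA held ranks 12162 and 26627, those of CALB1 12224 and 23396, and those of ATP2B4 ranks from 15454 to 18321. The second probe sets of SLC20A2 and VDR held ranks 19745 and 22897, and the further ones of TRPV6 held ranks 25481 and 36533. A rank depends on the probes as well as on the transcript, so ranks do not order the genes by abundance.

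The brightest probe set of CALB1 (Entrez gene 396519) had a signal of 1197 on paddy rice and 3478 on corn, a ratio of 0.344. By signal it held rank 5206 among the chicken probe sets on paddy rice and rank 1790 on corn. In its bin of signal the central 95% of ratios ran from 0.804 to 1.27, and none of the other probe sets of that bin had a ratio as low. Of the 5782 named genes that reached the top quartile of signal, 1 had a lower ratio than CALB1, the immunoglobulin joining chain gene JCHAIN with 0.126. In that range of signal 0.329% of named genes were below 0.67.

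The other CALB1 probe sets did not give the same size of difference. The second had a signal of 244 on paddy rice and 412 on corn, a ratio of 0.592, against a range of 0.655 to 1.51 in its bin. Both probe sets thus lay below the range of their bins. Their log2 ratios were -1.54 and -0.76, a gap of 0.78, which is more than the 0.38 expected as 1 SD for a pair of probe sets of a gene in the upper 50% of signal. The third probe set was not far above background, with a signal of 65.8 on paddy rice and 55.9 on corn. Its ratio of 1.18 lay well within the range of 0.400 to 2.61 in its bin, so that it gives no direction.

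VDR (Entrez gene 395988), which encodes the receptor through which the hormone acts, had a signal of 490 on paddy rice and 692 on corn on its brighter probe set. The ratio of 0.709 was just below the range of 0.723 to 1.36 in its bin, where 1.804% of probe sets had a ratio as low or lower. The dimmer VDR probe set had signals of 64.4 on paddy rice and 64.8 on corn, a ratio of 0.994. The lower signal was thus seen on the brighter probe set alone.

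The 3 probe sets of RXRA (Entrez gene 417143), the partner receptor, had ratios on both sides of 1. The brightest, whose identifier marks probes shared between transcripts, had a signal of 538 on paddy rice and 624 on corn, a ratio of 0.863, inside the range of its bin (0.723 to 1.36). The second had a signal of 399 on paddy rice and 257 on corn, a ratio of 1.55, just above the range of its bin (0.655 to 1.51). The third had a signal of 59.8 on paddy rice and 26.8 on corn. The corn signal was below background, and against that level the bound is 1.35-fold higher on paddy rice. The ratio of this probe set as deposited, 2.23, was inside the range of its bin (0.243 to 4.44). With the median over its probe sets, or without shared ones, RXRA therefore had a ratio of 1.55 in place of 0.863, and no direction can be given for the gene.

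CYP24A1 (Entrez gene 395827), which encodes the enzyme that breaks down the hormone and is strongly induced by it, was below background on both arrays. Its only probe set had signals of 21.1 on paddy rice and 28.3 on corn, and no fold is given. At this level a difference in CYP24A1 between the diets was not detectable.

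TRPV6 (Entrez gene 418307), the apical calcium channel gene, was nearly equal on both arrays where it was well measured. Its brightest probe set, marked as shared between transcripts, had a signal of 870 on paddy rice and 897 on corn, a ratio of 0.970, and 43.1% of probe sets in its bin had a ratio as low or lower. The second had signals of 41.8 on paddy rice, which is below background, and 52.3 on corn. Against the level of background the bound is 1.16-fold lower on paddy rice, but the ratio of 0.799 was inside the range of its bin (0.312 to 3.25). The third was below background on both arrays, with signals of 3.57 on paddy rice and 4.26 on corn. Only the shared probe set thus reports on this gene.

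ATP2B1 (Entrez gene 374244), the main basolateral calcium pump gene of the intestine, had similar ratios on its 2 probe sets. The brighter had a signal of 5778 on paddy rice and 6571 on corn, a ratio of 0.879, and the second probe set had 2238 on paddy rice and 2616 on corn, a ratio of 0.856. Both ratios were below 1 but inside the ranges of their bins, with lower bounds of 0.829 and 0.804. The pair therefore differed little from each other and did not stand out among probe sets of like signal.

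ATP2B4 (Entrez gene 419934), a second calcium pump gene, had 5 probe sets, and all 5 had a ratio below 1 and inside the range of their bins. The brightest had a signal of 3635 on paddy rice and 3751 on corn, a ratio of 0.969. The 4 others had signals between 114 and 165 on paddy rice and between 125 and 210 on corn, with ratios between 0.786 and 0.949. The brightest probe set was thus the one closest to equality.

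SLC34A2 (Entrez gene 395131), the sodium-phosphate cotransporter of the brush border, was lower on paddy rice on both of its probe sets. The brighter had a signal of 2198 on paddy rice and 3067 on corn, a ratio of 0.717, and the second had 1984 on paddy rice and 2543 on corn, a ratio of 0.780. Both ratios lay below the range of 0.804 to 1.27 in their common bin, where 0.531% and 2.02% of probe sets had ratios as low or lower. Neither ratio was past 0.67. Apart from CALB1, SLC34A2 was the only gene of the 10 with more than 1 probe set below the range of its bin.

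The other phosphate transporter genes gave no common direction. SLC20A1 (Entrez gene 426250) had a single probe set with a signal of 28.4 on paddy rice, below background, and 73.5 on corn. Against the level of background the bound is 1.63-fold lower on paddy rice. The ratio of SLC20A1 as deposited, 0.386, was still inside the range of 0.312 to 3.25 in its bin. SLC20A2 (Entrez gene 422493) had a signal of 733 on paddy rice and 636 on corn on its brighter probe set, a ratio of 1.15, and of 82.5 on paddy rice and 116 on corn on the other, a ratio of 0.711. Both SLC20A2 ratios were inside the ranges of their bins.

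**Figure D2:**
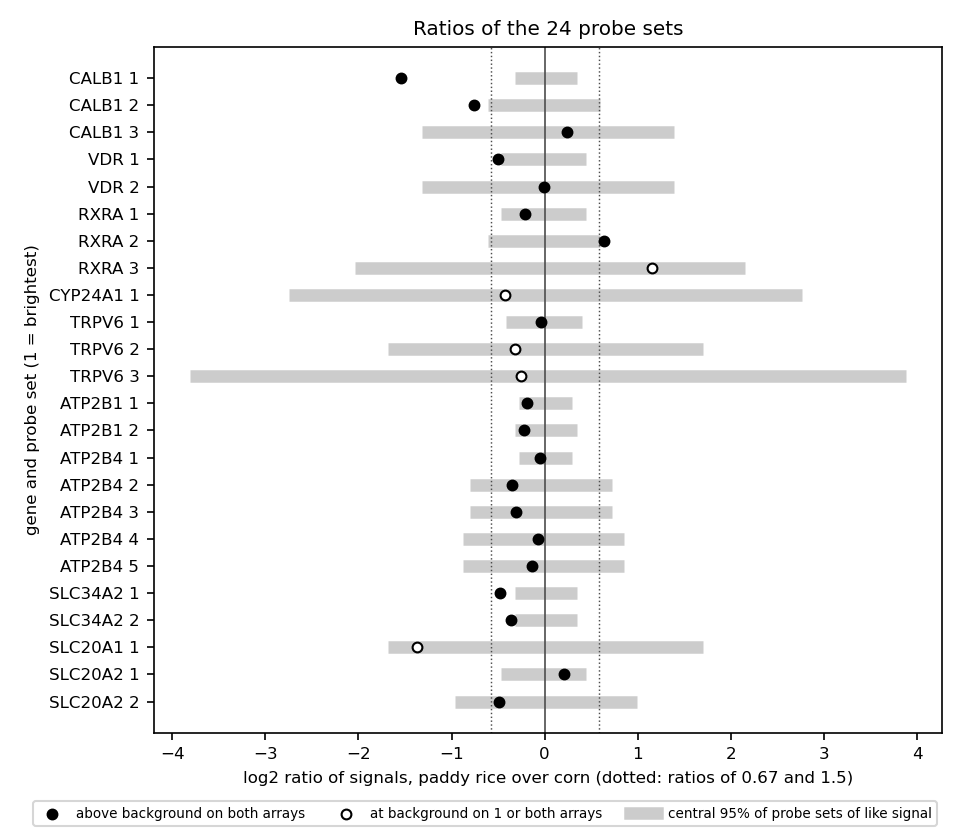
Log2 ratio of signals, paddy rice over corn (x axis), of each of the 24 probe sets (y axis, 1 being the brightest of a gene), with grey bars for the central 95% of ratios among chicken probe sets of like signal and open circles for probe sets at background on at least 1 array. Of the 24, 5 lie below their bar (CALB1 and SLC34A2 with 2 each, VDR with 1), 1 lies above it (RXRA) and 18 lie on it.

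Of the 24 probe sets, 19 were above background on both arrays, and 16 of these had ratios below 1. Among all chicken probe sets above background on both arrays, 51.37% had a ratio below 1. Genes with several probe sets enter this count more than once, so it is no count of separate genes. Below 0.67 were 3 of the 24 and above 1.5 were 2, where 15.1% and 14.6% of all chicken probe sets were. The 3 below were 2 of CALB1 and that of SLC20A1, and the 2 above were both of RXRA. The shares depend strongly on signal. In the top quartile of signal 0.509% of chicken probe sets were below 0.67, and in the bottom quartile 35.7% were.

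CALB1 was set against the other genes of the vitamin D system on the same arrays, as each gene's difference in log2 ratio. The log2 ratio of CALB1 was 1.04 below that of VDR, 1.06 below that of SLC34A2, 1.33 below that of RXRA, 1.35 below that of ATP2B1, 1.49 below that of ATP2B4, 1.495 below that of TRPV6 and 1.74 below that of SLC20A2. For a pair of probe sets of a gene in the top quartile of signal, where all 8 of these genes lay, 1 SD of the difference was 0.22. This SD is a yardstick of size only. It is taken within genes and does not measure the spread of differences between genes or between pools of birds. CYP24A1 and SLC20A1 were at background on at least 1 array and bear no such comparison. Ordered by ratio, the 8 genes ran from CALB1 (0.344) over VDR (0.709), SLC34A2 (0.717), RXRA (0.863), ATP2B1 (0.879), ATP2B4 (0.969) and TRPV6 (0.970) to SLC20A2 (1.15). VDR and SLC34A2, RXRA and ATP2B1, ATP2B1 and ATP2B4, and ATP2B4 and TRPV6 were neighbours that differed by less than that SD. The gap between CALB1 and VDR was the widest between neighbours. With the median over probe sets in place of the brightest, CALB1 had a ratio of 0.592 and VDR one of 0.839. RXRA then had 1.55 and SLC20A2 0.905, so the order depends on the choice of probe set.

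**Figure D3:**
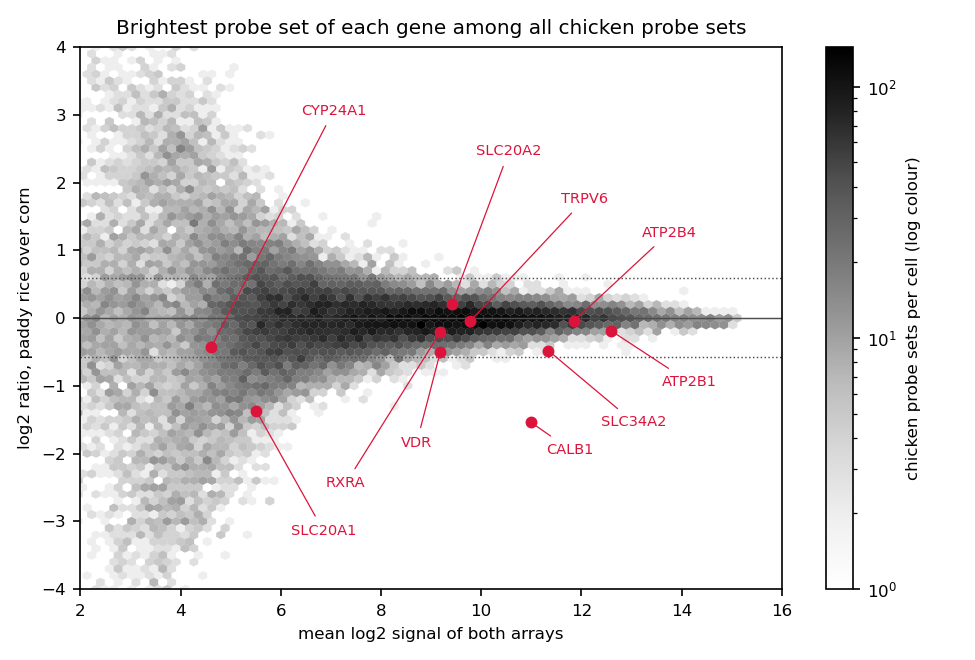
Log2 ratio, paddy rice over corn (y axis), against the mean log2 signal of both arrays (x axis) for all 37693 chicken probe sets (grey cells, darker for more probe sets; the axes leave out the extremes) with the brightest probe set of each of the 10 genes in red and dotted lines at ratios of 0.67 and 1.5. CALB1 lies clear of the grey cloud at a log2 ratio of -1.54, while SLC20A1 and CYP24A1 lie where the cloud is wide.

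The genes whose levels on both arrays were nearest to those of CALB1 were APOA4, GSK3A, MT3, FDX1 and TMTC3. Nearness was the Euclidean distance between log2 signals on the 2 arrays, over the brightest probe set of each named gene, and it says nothing of shared function. APOA4, an apolipoprotein gene of the enterocyte, lay at a distance of 0.37, with a signal of 1412 on paddy rice and 2860 on corn. The kinase gene GSK3A lay at 0.51, with 1388 on paddy rice and 2531 on corn. The metallothionein gene MT3 lay at 0.66 and FDX1, the gene of a ferredoxin that passes electrons to mitochondrial cytochrome P450 enzymes, at 0.71. These had ratios of 0.655 (MT3) and 0.678 (FDX1), and TMTC3 had 0.733 at a distance of 0.80. All 5 ratios lay below the central 95% in their bin (0.804 to 1.27), and none was as low as that of CALB1. Nearness on both arrays takes in the ratio, so low ratios among these genes follow from the way they were chosen.

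A wider list of calcium, phosphate and vitamin D genes showed no common shift like that of CALB1. Of the 69 genes listed 55 were found on the array, and 33 of these were in the upper 50% of signal by their brightest probe set. Of the 33, 21 (63.64%) had a ratio below 1, 1 was below 0.67 and 1 was above 1.5, and their median log2 ratio was -0.043. Over all 9240 named genes in that range 50.66% had a ratio below 1 and the median log2 ratio was -0.0031. Of these genes 1.71% were below 0.67 and 1.87% above 1.5. The gene below 0.67 was BGLAP, which encodes osteocalcin, a bone matrix protein whose gene is a vitamin D target in mammals. BGLAP had a signal of 95.1 on paddy rice and 230 on corn on its only probe set, a ratio of 0.413, against a range of 0.573 to 1.65 in its bin.

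The gene above 1.5 was DHCR7, whose enzyme reduces 7-dehydrocholesterol, the precursor of both cholesterol and vitamin D3. DHCR7 had a signal of 1105 on paddy rice and 725 on corn, a ratio of 1.52, but its dimmer probe set had a ratio of 0.615. Among the listed genes in the top quartile of signal and between the thresholds, the largest log2 ratios in size were those of STC2, XPR1, TRPC1 and MYO1A, and all 4 were lower on paddy rice on the brightest probe set. STC2, a gene of the stanniocalcin family of secreted glycoproteins, had a signal of 1130 on paddy rice and 1481 on corn, a ratio of 0.763, and XPR1, the gene of a phosphate exporter, had 1503 on paddy rice and 1912 on corn, a ratio of 0.786. The 3 probe sets of XPR1 had ratios between 0.702 and 0.872. The ratio of the cation channel gene TRPC1 was 0.830, but its 4 probe sets ran from 0.723 to 1.63 and give no common direction. The ratio of MYO1A, a brush border myosin gene, was 0.831. Only the ratio of STC2 was below the range of its bin, whose lower bound was 0.768.

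Some bright genes of the same list had ratios nearer to 1, and those given here were chosen after their values were seen. The sarcoplasmic and endoplasmic calcium pump genes ATP2A2 and ATP2A3 had ratios of 0.914 and 0.960, CALM2, a calmodulin gene, had 0.974, and CLDN2, the gene of a tight junction protein that lets cations pass between cells, had 1.03. MED1 and SNW1, whose proteins assist the vitamin D receptor, had 0.849 and 0.997. CALB2, which encodes the related calretinin, was not among the bright genes. It had signals of 47.0 on paddy rice and 68.1 on corn on its brighter probe set, close to background. The ratio was 0.690 on that probe set and 0.258 on the dimmer one.

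Markers of the cells in which these genes are expressed were measured on the same arrays. Over all named genes, 8.57% were below 0.67 and 8.27% above 1.5. In the top quartile of signal, which held all 15 villus enterocyte genes, these shares were 0.329% and 0.623%. Of 15 villus enterocyte genes found, 11 had a ratio below 1 and none was past a threshold, with ratios between 0.854 and 1.15 and a summed signal of 227215 on paddy rice and 238371 on corn, a ratio of 0.953. Of 5 ileal genes all had a ratio above 1 and CUBN was above 1.5 with 2.69, with a summed signal of 57674 on paddy rice and 52536 on corn. Of 6 duodenal and jejunal genes 2 had a ratio below 1, 1 was below 0.67 (GKN2) and 1 above 1.5 (GATA4), with a summed signal of 9574 on paddy rice and 9167 on corn, and these 2 were not above background on both arrays. Of 8 genes of crypt and cycling cells 3 had a ratio below 1 and none was past a threshold, with a summed signal of 10703 on paddy rice and 11158 on corn. The ratio of CALB1 (0.344) was below that of each of the 15 enterocyte genes. This follows from its place among the 5782 named genes in the top quartile, where only JCHAIN had a lower ratio. Whether the number of enterocytes had a part in the CALB1 result was not tested.

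CALB1 is also expressed in enteric neurons in mammals. Of 8 genes of enteric neurons and glia found, 7 had a ratio below 1 and 2, S100B and SNAP25, were below 0.67, where 3.01% of named genes above background on both arrays were, and the summed signal was 4904 on paddy rice and 6491 on corn, a ratio of 0.756. All 8 were above background on both arrays, and their ratios ran from 0.588 for S100B to 1.01 for RET. S100B, with a signal of 1092 on paddy rice and 1856 on corn, made up a large part of the gap between the sums. The part of these 8 genes in the CALB1 result was not tested. The ratio of summed signals was 0.961 for 5 goblet cell genes, 0.991 for 4 smooth muscle genes and 0.941 for 4 genes of endothelium and blood. For 4 genes of plasma and B cells it was 0.940, a sum made up almost wholly of BLB1 (28074 on paddy rice and 27743 on corn), while 3 of the 4 had a ratio below 1 and the median log2 ratio was -0.47. JCHAIN in the plasma and B cell list and PECAM1 in the endothelial list were below 0.67, with ratios of 0.126 and 0.595, as was CD79B with 0.667.

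**Figure D4:**
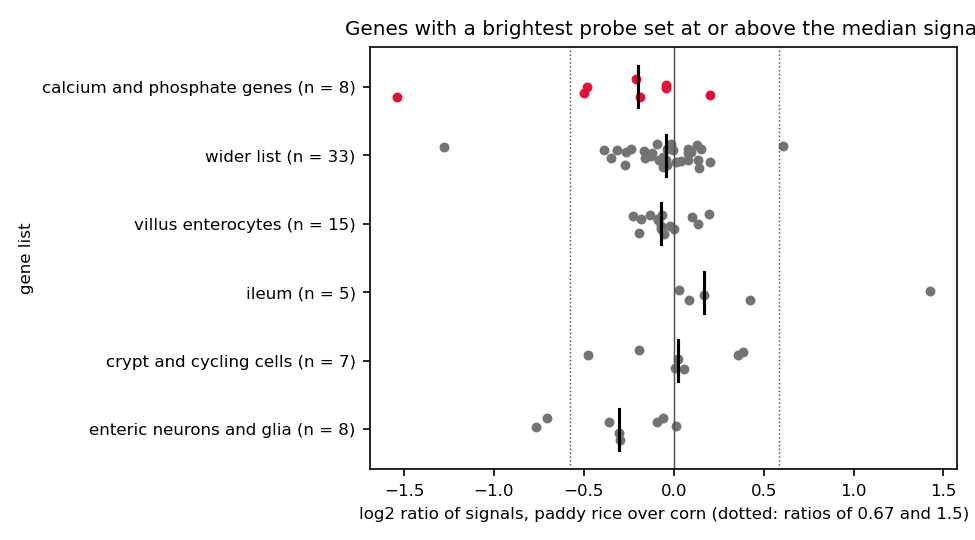
Log2 ratio, paddy rice over corn (x axis), of genes in the upper 50% of signal by their brightest probe set, grouped by list (y axis), 1 point per gene with a bar at the median and dotted lines at ratios of 0.67 and 1.5. The medians were -0.20 for 8 of the 10 calcium and phosphate genes, -0.043 for 33 genes of the wider list, -0.070 for 15 villus enterocyte genes, 0.17 for 5 ileal genes, 0.024 for 7 genes of crypt and cycling cells and -0.30 for 8 genes of enteric neurons and glia.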

How the data were processed

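For each diet the authors hybridised a pool of total RNA from 3 birds to a GeneChip Chicken Genome Array, and condensed its probes with MAS5, which the submitters' processing notes also name. The deposited values are linear signal intensities for every probe set, with no detection calls. Of 37693 chicken probe sets, 27166 had 1 gene in the platform annotation, 177 had several and 10350 had none. Symbols were updated by Entrez identifier with the RefSeq table of GRCg7b, which held 26851, and no coordinates or sequences were used. The ratio was paddy rice over corn, with the study's thresholds of 1.5 and 0.67 and no filter. This put 5696 chicken probe sets below 0.67 and 5520 above 1.5, and the study reports far fewer. Its methods name no filter, and the shares given here are no background for its own counts. A gene took the value of its brightest probe set, by the mean of log2 signals. The level of background was the 95th percentile of 689 non-chicken probe sets, and where 1 array was below it, the fold was a bound against that level. A difference between probe sets was set beside the SD between probe sets of a gene times the square root of 2.

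The members and lists were chosen with earlier results of these data known. Named were all 10 genes, the genes of the wider list past a threshold at or above the median signal (111), the 4 next largest at or above the 75th percentile (522), and the 5 nearest to CALB1. Lists were matched by current or platform symbol. The alternatives were filters at the median and 75th percentile of signal, median centring, quantile normalization, loess centring (fraction 0.3), an offset of 34.5 (the 25th percentile), omission of shared probe sets, the median over probe sets, and thresholds of 2 and 0.5. A filter and a floor at the level of background were chosen later, once the data had been seen. The arithmetic of ratios and thresholds was checked on simulated signals of known ratio, which is no test between the diets. Python 3.11.15, numpy 2.4.6, pandas 2.3.3, statsmodels 0.14.6 and matplotlib 3.10.9 were used.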

Additional observations from a re-analysis of the deposited data

How the results depend on the processing

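Of 167 values recomputed under the alternatives, 143 stayed within 0.27 on the log2 scale (the SD between probe sets of a gene at or above the median signal) or, for counts, within 1.5 times. None of the values past a threshold turned its direction, but of the single genes only CALB1 and SLC20A1 were past one, and counts have no direction. Between the thresholds, the log2 ratios of RXRA, SLC20A2 and CYP24A1 and the median of the wider list did change sign under some alternatives. The values that moved beyond these limits follow. With the median over probe sets the log2 ratio of CALB1 was -0.76 and its difference from the median of the other 9 genes was -0.50, in place of -1.54 and -1.33. Under the 9 other alternatives that give these values, they stayed within that SD. The filters, the floor and the omission of shared probe sets could not change the ratios of CALB1, VDR, SLC34A2, ATP2B1, ATP2B4 and SLC20A2. Their brightest probe sets are bright and not shared. Part of the 143 values thus could not move, and their number is no measure of how stable the results are. With filters at the median signal, at the 75th percentile or at background, 1 of the genes was below 0.67 in place of 2, since SLC20A1 was left out. With the median over probe sets or without shared ones, 1 was above 1.5 in place of none, RXRA. The log2 ratio of RXRA was 0.63 under both settings. That of SLC20A2 was -0.14 with the median over probe sets, that of CYP24A1 0.031 with the floor at background, that of TRPV6 -0.32 without shared probe sets, and that of SLC20A1 -0.78 with the offset and -0.71 with the floor. Of the wider list, 7 were below 0.67 and 4 above 1.5 without a filter. Below 0.67 were 1 with the filter at the median, 0 at the 75th percentile, 1 with the offset, 3 with the filter or the floor at background, and 2 were below 0.5. Above 1.5 were 1 with each of the 3 filters and 2 with the floor. Under scaling by median, quantiles or loess no member passed or left a threshold. No paired analysis was possible because there is 1 array per diet, and no array could be left out for the same reason. Low signals limit CYP24A1 and SLC20A1, whose values the arrays do not resolve.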
